A study of Mus musculus with 6 samples.

Results

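Described here are 9 genes that mark monocytes and macrophages, 3 of which encode the chains of the complement protein C1q. They are Csf1r, Adgre1, Cx3cr1, Ly86, Cd68, Mpeg1, C1qa, C1qb and C1qc, out of 18193 genes that the array annotation names. They were chosen by symbol, taking each probe set annotated with exactly 1 gene symbol that is one of these names. All 9 genes were found, on 14 probe sets, and Csf1r, Cx3cr1 and C1qb had more than 1. A probe set is a group of short probes on the array that are summarised as one expression value.

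The samples were 6 RNA preparations of a single haematopoietic progenitor clone, C6, on a Rosa26rtTA C57BL/6J background. All of them carried pRRL.TET.Evi1.IRES.EGFP, a vector in which doxycycline turns on a codon-optimized murine Evi1 together with the fluorescent protein EGFP. The dox group (3 arrays) was kept under 1 µg/ml doxycycline, and the withdrawal group (3 arrays) was taken 48 h after the drug was removed. Both groups grew in murine stem cell factor (50 ng/ml), murine interleukin 3 (20 ng/ml), human Flt3 ligand (50 ng/ml) and human interleukin 11 (50 ng/ml), a list that names no Csf1r ligand. The series design describes the clone as dependent on Evi1, a zinc finger transcription factor. Loss of Evi1 and removal of the drug cannot be told apart in this design, and with 1 clone the results cannot be extended to others. The labels do not say that replicates came from separate cultures, and the p-values given here reflect the scatter among these 6 arrays alone, part or all of which may be technical.

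Monocytes and macrophages depend on the receptor encoded by Csf1r, a tyrosine kinase that binds macrophage colony-stimulating factor and interleukin 34. In mice they are recognised by the adhesion receptor Adgre1, by the fractalkine receptor Cx3cr1 and by the endosomal protein Cd68. Tissue macrophages are also the main source of C1q, which binds antibody complexes and, with the proteases C1r and C1s, starts the classical complement pathway.

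After withdrawal 4 of the 9 genes fell, namely Mpeg1, Cd68, Csf1r and C1qc, each to a level 1.29-fold to 1.35-fold below that under doxycycline. At an unadjusted p under 0.05 in limma 7 of the 9 were lower, a mark that 8.26% of all genes reached. None of the 9 rose, and none was higher at an unadjusted p under 0.05 in limma. For comparison, 1.57% of all genes fell and 1.2% rose by the same rule, a Benjamini-Hochberg adjusted p below 0.05 in limma over 45037 probe sets. The other 5 genes did not pass, with differences from -0.32 for C1qb to -0.09 for Ly86 on the log2 scale. On the brightest probe set of each of the 9 genes, all 3 withdrawal arrays lay below all 3 dox arrays. Of all genes 12.2% showed this order, also on their brightest probe sets. Among the 14 probe sets of the 9 genes, of which C1qb has 3, it was seen on 11. The share over all probe sets is not given here. Both other probe sets of Csf1r overlapped between the groups, and so did the other of Cx3cr1, where the difference was 0.22. The median difference was -0.32 over the 9 genes and 0.01 over all genes. These are bulk samples, so fewer cells of a type and less RNA per cell cannot be told apart. With 1 array left out, 0 of the 9 genes passed in 5 of the 6 fits, in which 5 or 6 genes were lower at an unadjusted p under 0.05. The 8.26% above belongs to the fit of all 6 arrays, and the share in these fits is not given here. Without withdrawal replicate 3, 3 of them passed, namely Mpeg1, Cd68 and Csf1r. For the 4 genes that fell, the differences moved little with 1 array left out. They ran from -0.42 to -0.45 for Mpeg1, -0.38 to -0.42 for Cd68, -0.37 to -0.41 for Csf1r and -0.34 to -0.38 for C1qc. Those of C1qb (-0.19 to -0.41) and Ly86 (-0.04 to -0.13) moved more.

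**Figure D1:**
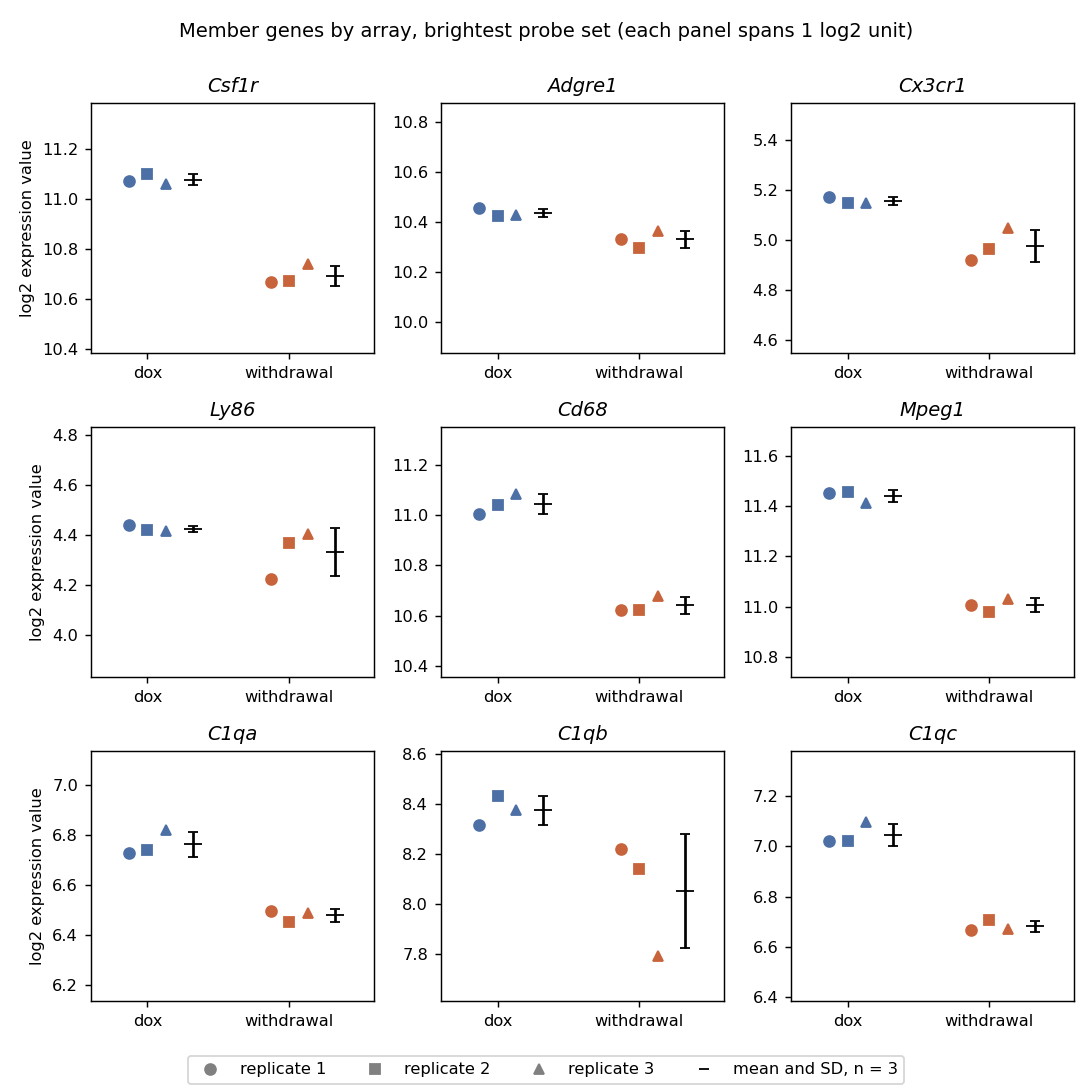
Log2 expression value (vertical axis, 1 log2 unit per panel) of the 9 genes on each of the 3 dox and 3 withdrawal arrays, with the mean and SD of each group (n = 3). Each gene is shown by its brightest probe set, on which the groups do not overlap in any panel. The gap is widest for Mpeg1, and withdrawal replicate 3 is the lowest array for C1qb.

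The arrays had medians from 5.22 to 5.27, and the first principal component (47.7% of the variance over 22518 brighter probe sets) separated the groups. The second component (31.9%) set withdrawal replicate 3 and dox replicate 1 apart from the other arrays. Without both, a choice made with earlier results known, 0 of the 9 genes passed and 7 were lower at an unadjusted p under 0.05. The share of all genes at that mark in this fit is not given here. In that fit of 2 against 2 arrays the differences were -0.44 for Mpeg1, -0.44 for Cd68, -0.41 for Csf1r and -0.37 for C1qc. Of 6 progenitor markers, Ptprc, Kit, Cd34, Flt3, Myb and Gata2, 1 fell, Cd34. Kit (0.26) and Gata2 (0.21) did not pass but were higher at an unadjusted p under 0.05 in limma, as were 1456 of all 18193 genes. All 6 markers had a mean above the median of all probe sets, 5.24. By their brightest probe sets, 11143 of all 18193 genes lay above that median. Of 29 other surface and lysosome genes of monocytes and macrophages, described below, 23 lay above that median, and the other 6, Cd163, Marco, Vsig4, Timd4, Apoe and Aif1, did not.

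Csf1r was read by 3 probe sets, and they did not give the same difference. On the brightest, 1419872_at, the dox arrays read 11.07, 11.10 and 11.06 and the withdrawal arrays 10.67, 10.67 and 10.74. Every withdrawal array was thus below every dox array, by at least 0.32. The group means were 11.08 ± 0.02 (SD, n = 3) and 10.69 ± 0.04 (SD, n = 3), a difference of -0.38 ± 0.06 (standard error) with a limma adjusted p of 0.0283. On 1419873_s_at the dox arrays read 8.93, 9.32 and 9.15 and the withdrawal arrays 9.10, 9.10 and 8.63. Here the groups overlapped and withdrawal replicate 3 was lowest, with a difference of -0.19 ± 0.15 (limma adjusted p = 0.650). On 1423593_a_at the dox arrays read 8.17, 8.18 and 8.30 and the withdrawal arrays 8.22, 8.07 and 8.23, which also overlapped, with a difference of -0.05 ± 0.08 (limma adjusted p = 0.856). The difference on 1419872_at was more negative than that on 1423593_a_at by a margin of -0.34 and than that on 1419873_s_at by a margin of -0.20. By an exact permutation test over the arrays, two-sided, the first margin had p = 0.1, the smallest that 3 against 3 allow, and the second p = 0.3 (0.25 and 0.5 adjusted over 5 such pairs of probe sets). With the mean of its probe sets Csf1r differed by -0.21 and did not pass (limma adjusted p = 0.147). The call for this receptor gene therefore rests on 1 of its 3 probe sets.

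**Figure D2:**
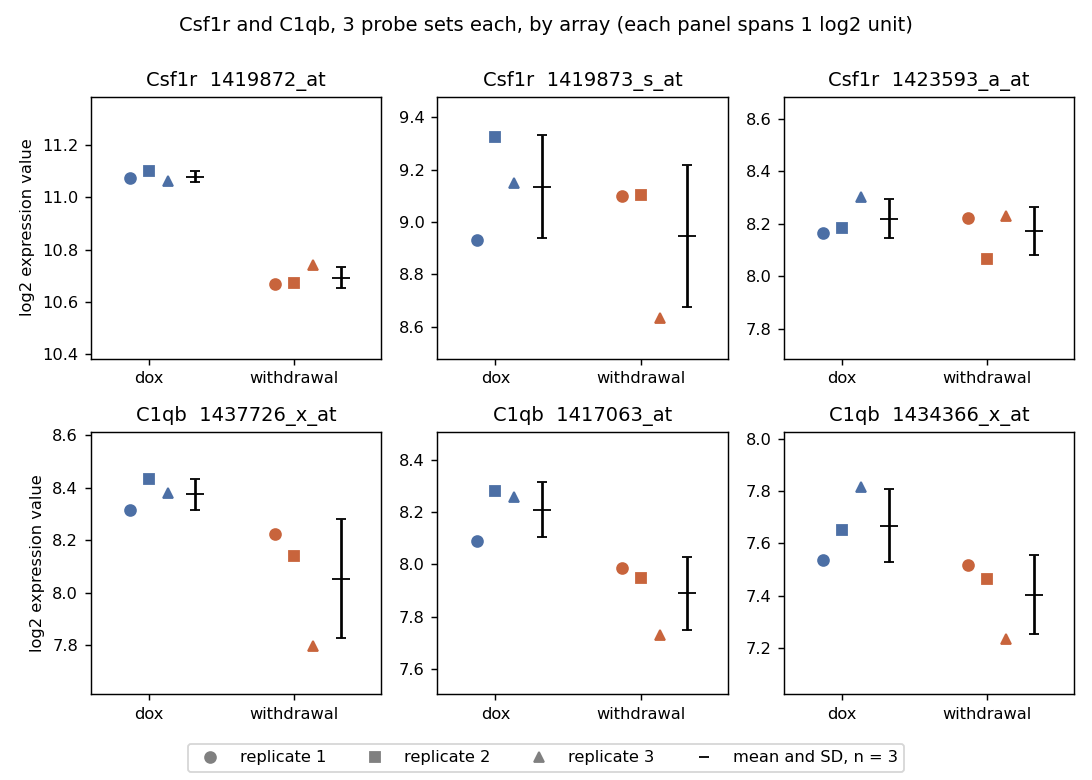
Log2 expression value (vertical axis, 1 log2 unit per panel) of the 3 probe sets of Csf1r and the 3 of C1qb by array, with the mean and SD of each group (n = 3). The groups are separate on 1419872_at alone among the Csf1r probe sets, while withdrawal replicate 3 is the lowest array on all 3 probe sets of C1qb.

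The other surface genes differed less. Adgre1 encodes an adhesion receptor of the G protein-coupled class, a classic surface antigen of mouse macrophages. Its dox arrays read 10.45, 10.42 and 10.43 and its withdrawal arrays 10.33, 10.30 and 10.36. The groups were separate but close, with a difference of -0.11 ± 0.06 that did not pass (limma adjusted p = 0.510). Cx3cr1, the fractalkine receptor gene, was dim, below the median of all probe sets on both its probe sets. On 1450020_at the dox arrays read 5.17, 5.15 and 5.15 and the withdrawal arrays 4.92, 4.96 and 5.05, a difference of -0.18 ± 0.07 (limma adjusted p = 0.269). On 1450019_at the difference had the other sign, 0.22 ± 0.13 (limma adjusted p = 0.521), and the groups overlapped. No direction can be given for Cx3cr1, since the mean of both probe sets differed by 0.02. Ly86 encodes MD-1, a secreted partner that holds the Toll-like receptor relative RP105 at the cell surface. It was dim as well, with dox arrays at 4.44, 4.42 and 4.42 and withdrawal arrays at 4.22, 4.37 and 4.40. Only withdrawal replicate 1 was clearly lower, and the difference of -0.09 ± 0.07 did not pass (limma adjusted p = 0.638). Differences of dim genes are compressed near the floor of the arrays.

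Of the 9 genes, those for the endosomal and lysosomal proteins, Mpeg1 and Cd68, had the largest differences. Those of Csf1r (-0.38) and C1qc (-0.37) were close to that of Cd68, and the order was not tested. Mpeg1 encodes perforin-2, a pore-forming protein that acts on engulfed bacteria. Its dox arrays read 11.45, 11.46 and 11.41 and its withdrawal arrays 11.01, 10.98 and 11.03, so that the groups were at least 0.38 apart. Mpeg1 fell from 11.44 ± 0.02 to 11.01 ± 0.03 (SD, n = 3 each), a difference of -0.44 ± 0.06 or 1.35-fold (limma adjusted p = 0.0166). Cd68 encodes macrosialin, a heavily glycosylated membrane protein of late endosomes and lysosomes. Its dox arrays read 11.01, 11.04 and 11.09 and its withdrawal arrays 10.62, 10.62 and 10.68, which left at least 0.33 between the groups. Cd68 fell from 11.04 ± 0.04 to 10.64 ± 0.03 (SD, n = 3 each), a difference of -0.40 ± 0.06 or 1.32-fold (limma adjusted p = 0.0251). Each was read by 1 probe set, so that no second reading was at hand. Without 1 array the adjusted p ran from 0.0378 to 0.0930 for Mpeg1 and from 0.0493 to 0.122 for Cd68 in limma.

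**Figure D3:**
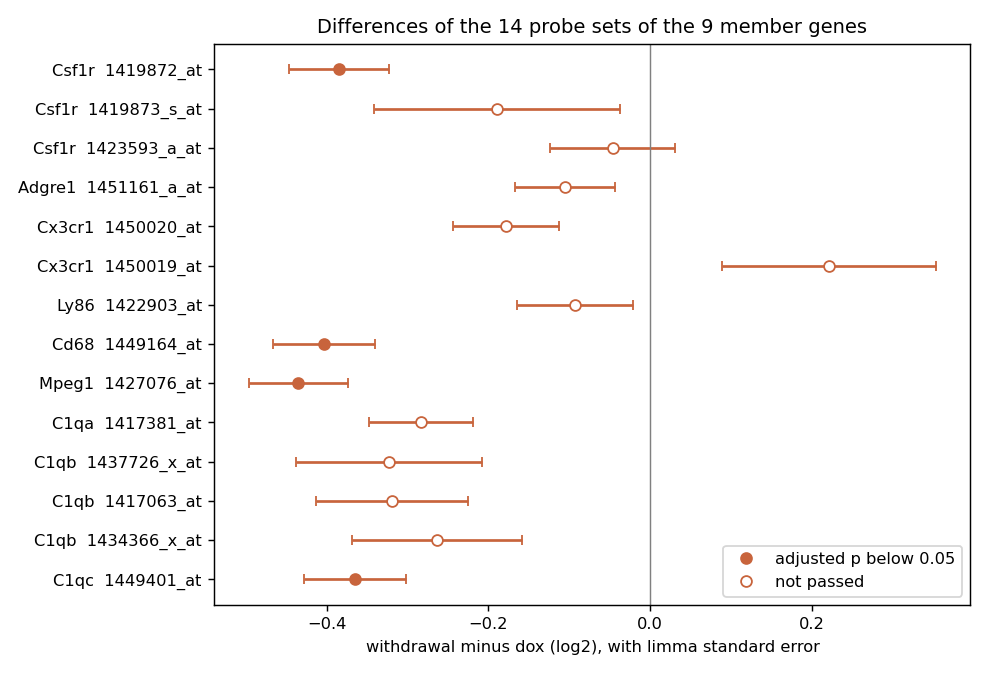
Withdrawal minus dox on the log2 scale (horizontal axis) with its limma standard error for the 14 probe sets of the 9 genes; filled points have an adjusted p below 0.05. The 4 filled points lie between -0.44 and -0.37, and 1450019_at of Cx3cr1 is the only point above 0.

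The promoters of Mpeg1, Cd68 and C1qc, which fell, are shown side by side, together with that of C1qb, the neighbour of C1qc, which did not pass the test. Promoter sequences from RefSeq (build GRCm38.p6, 250 bases before to 50 after the start) matched 6 of the 9 genes by symbol. Capitals mark matches, on either strand, to GAGGAA, a core bound by PU.1, and TGTGGT, a core bound by RUNX1. Capitals would also mark CAAGATA, a part of the sequence bound by the first zinc finger domain of Evi1. The motifs do not overlap one another in these windows. The Mpeg1 window is chr19:12460520-12460819 on the plus strand and the Cd68 window chr11:69666121-69666420 on the minus strand.
Mpeg1: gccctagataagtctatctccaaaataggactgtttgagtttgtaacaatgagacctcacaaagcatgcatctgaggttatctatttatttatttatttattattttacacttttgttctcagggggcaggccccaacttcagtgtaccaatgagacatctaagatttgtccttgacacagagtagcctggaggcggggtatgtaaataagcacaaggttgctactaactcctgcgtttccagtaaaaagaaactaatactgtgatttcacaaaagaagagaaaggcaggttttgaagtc
Cd68: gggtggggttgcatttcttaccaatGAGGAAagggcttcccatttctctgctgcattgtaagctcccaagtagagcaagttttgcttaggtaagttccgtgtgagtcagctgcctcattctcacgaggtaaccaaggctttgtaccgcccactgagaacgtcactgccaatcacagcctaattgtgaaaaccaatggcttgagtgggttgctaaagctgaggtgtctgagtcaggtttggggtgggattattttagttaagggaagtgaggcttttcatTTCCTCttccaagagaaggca
Cd68 held GAGGAA at -225 to -220 and, on the other strand, at 29 to 34 from the start, and Mpeg1 held none of the 3 motifs.

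The genes of the 3 C1q chains lie next to each other on chromosome 4, in the order C1qb, C1qc and C1qa, with no other protein-coding gene between them. The 3 chains assemble into 1 protein, in which each subunit holds an A, a B and a C chain. The C1qb window is chr4:136886151-136886450 and the C1qc window chr4:136892865-136893164, both on the minus strand.
C1qb: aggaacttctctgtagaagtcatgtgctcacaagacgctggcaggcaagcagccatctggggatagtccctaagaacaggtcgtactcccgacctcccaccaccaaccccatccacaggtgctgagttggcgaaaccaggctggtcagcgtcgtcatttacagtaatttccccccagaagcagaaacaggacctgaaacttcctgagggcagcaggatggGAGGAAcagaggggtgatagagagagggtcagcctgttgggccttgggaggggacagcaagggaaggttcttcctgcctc
C1qc: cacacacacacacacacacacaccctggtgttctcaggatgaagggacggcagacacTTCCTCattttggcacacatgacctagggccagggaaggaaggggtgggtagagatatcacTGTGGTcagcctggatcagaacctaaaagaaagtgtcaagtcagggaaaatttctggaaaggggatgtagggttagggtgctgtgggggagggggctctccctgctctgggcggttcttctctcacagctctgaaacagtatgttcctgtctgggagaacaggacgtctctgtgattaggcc
GAGGAA stood at -30 to -25 in C1qb and, on the other strand, at -193 to -188 in C1qc, which also held TGTGGT at -132 to -127. Of all 32851 promoters of this length, 28.3% held GAGGAA, 16.8% TGTGGT and 2.26% CAAGATA. Among the 6 promoters of these genes the counts were 3, 2 and 0. The other match to TGTGGT was in Cx3cr1, on the other strand at -54 to -49, and Ly86 held no match.

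All 3 C1q genes had lower values on every withdrawal array than on every dox array, but the test called only C1qc. On the C1qc probe set the dox arrays read 7.02, 7.02 and 7.10 and the withdrawal arrays 6.67, 6.71 and 6.67. The groups were at least 0.31 apart, and C1qc fell by 0.37 ± 0.06 or 1.29-fold (limma adjusted p = 0.0343). Without 1 array its call was lost for any of the 6, with adjusted p from 0.0782 to 0.153 in limma. C1qa had dox arrays at 6.73, 6.74 and 6.82 and withdrawal arrays at 6.50, 6.45 and 6.49. The groups were at least 0.23 apart, and the difference of -0.28 ± 0.06 did not pass (limma adjusted p = 0.0827). With only probe sets above the median C1qa passed (limma adjusted p = 0.0203), so that 5 of the 7 genes tested fell. In that fit 1082 of 22518 probe sets fell. With probe sets averaged within each gene C1qa passed too (limma adjusted p = 0.0331). Both fits test fewer features, and the standard error of C1qa was smaller in them, 0.052 and 0.055 against 0.064. C1qb had dox arrays at 8.32, 8.43 and 8.38 and withdrawal arrays at 8.22, 8.14 and 7.79 on 1437726_x_at. Withdrawal replicate 3 was far below the other withdrawal arrays, and the difference of -0.32 ± 0.12 did not pass (limma adjusted p = 0.256). The other probe sets of C1qb differed by -0.32 ± 0.09 and -0.26 ± 0.10 (limma adjusted p = 0.171 and 0.311), with withdrawal replicate 3 lowest on both. Without that array C1qb differed by -0.19 on 1437726_x_at. The 3 C1qb probe sets differed from each other by at most -0.06 in their group difference. That C1qc passed and C1qa and C1qb did not is no test of a difference between the chains, which was not made.

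**Figure D4:**
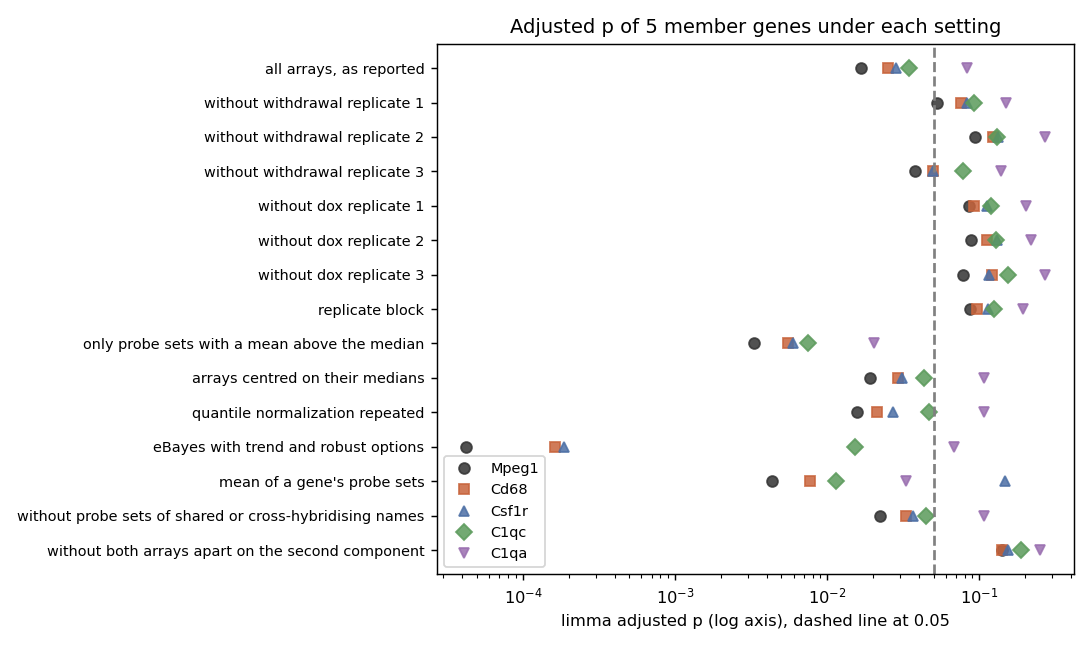
Limma adjusted p (horizontal log axis, dashed line at 0.05) of the 4 genes that fell and of C1qa under each setting. With all arrays the 4 genes lie from 0.0166 to 0.0343, and with 1 array left out most points cross to the right of the line.

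Other genes of the same pathways were read from lists written from general knowledge, with earlier results of these data known. For comparison, 1456 of all 18193 genes were higher and 1503 lower at an unadjusted p under 0.05 in limma. Among 11 measured transcription factor genes of monocytes and macrophages, 0 passed in limma, with 3 higher and 3 lower at an unadjusted p under 0.05. With only probe sets above the median, 1 of the 11 rose and 2 fell. In that fit 862 of 22518 probe sets rose and 1082 fell. Irf8, a factor that monocyte development needs, differed by -0.53 ± 0.10 (limma adjusted p = 0.0537) and Zeb2 by -0.41 ± 0.09 (limma adjusted p = 0.0745). The PU.1 gene Spi1 differed by 0.27 ± 0.09 (limma adjusted p = 0.245) and Cebpb by 0.30 ± 0.08 (limma adjusted p = 0.113). The median of this list was -0.11. On the brightest probe sets Irf8 and Zeb2 were lower and Spi1 and Cebpb higher on every withdrawal array. The gap between the groups was 0.31 for Irf8, 0.20 for Zeb2 and 0.14 for Cebpb, but only 0.01 for Spi1. Of all genes 12.2% were lower in this way, and the share that were higher was not counted. The groups were separate on the other probe sets of Irf8 (-0.56) and Cebpb (0.19) too. They overlapped on the other probe sets of Zeb2, with differences from -0.26 to 0.08.

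Among 14 genes of Csf1r ligands and signalling partners, 0 passed in limma, with 1 higher and 2 lower at an unadjusted p under 0.05. With only probe sets above the median, 1 of 12 rose and none fell, where 862 of 22518 probe sets rose and 1082 fell. Socs1, an inhibitor of cytokine signalling, differed by 0.40 ± 0.09 (limma adjusted p = 0.0869) and the phosphatase gene Ptpn6 by -0.27 ± 0.08 (limma adjusted p = 0.160). The ligand gene Csf1 differed by -0.04 ± 0.09, while Il34 was dim, at 4.40 under doxycycline and 4.38 after withdrawal. The list's median was -0.01.

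Of 29 other measured surface and lysosome genes of monocytes and macrophages, 1 rose and none fell in limma, where 2 were lower at an unadjusted p under 0.05. Fcgr4, an activating IgG receptor, rose by 0.39 ± 0.07 (limma adjusted p = 0.0375), a call that was lost without any 1 of the 6 arrays. Msr1, a scavenger receptor gene, differed by -0.29 ± 0.10 and Ccr2, the chemokine receptor of inflammatory monocytes, by -0.24 ± 0.07, and neither passed. Over all its probe sets Ccr2 ran from -0.46 to 0.09, and none passed. The lysozyme gene Lyz2 (-0.02), the integrin gene Itgam (0.01), the cathepsin gene Ctss (0.01) and the lysosomal membrane gene Lamp1 (-0.02), each read by 1 probe set, had differences of at most 0.02 in size with standard errors of 0.06 to 0.07. These were named with their values known. Other genes of the list with 1 probe set, Fcgr4 aside, ran from -0.21 for Aif1 to 0.21 for Itgax, and none of them passed. Probe sets of 1 gene gave unequal values for the cathepsin gene Ctsb, from -0.16 to 0.11 over 5, and for the lysosomal membrane gene Lamp2, from 0.01 to 0.27 over 4, none of which passed. The median of this list was 0.01, as over all genes, against -0.32 for the 9 genes described here.

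**Figure D5:**
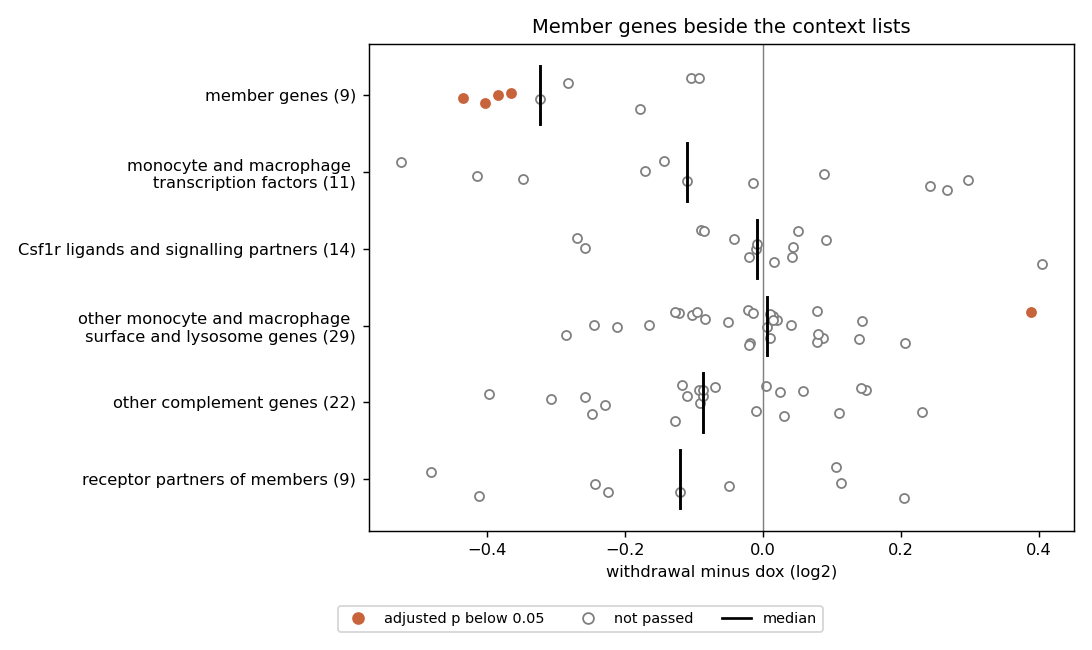
Withdrawal minus dox on the log2 scale (horizontal axis) for each measured gene of the 9 and of the 5 context lists, with the number of genes in brackets and a bar at the median; filled points have a limma adjusted p below 0.05. The medians of the context lists lie between -0.12 and 0.01, and Fcgr4 is the only filled point outside the 9.

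Of 22 other measured complement genes, 0 passed in limma, with 1 higher and 4 lower at an unadjusted p under 0.05. With only probe sets above the median, 1 of 13 rose and 2 fell, where 862 of 22518 probe sets rose and 1082 fell. C1ra, which encodes the protease that binds C1q, differed by -0.40 ± 0.12 (limma adjusted p = 0.189) and Cd93, a receptor gene once described as a C1q receptor, by -0.31 ± 0.06 (limma adjusted p = 0.0599). Over all its probe sets Cd93 ran from -0.50 to 0.02, and none passed. The C3a receptor gene C3ar1 differed by -0.26 ± 0.06 and Itgb2, a chain of complement receptor 3, by 0.23 ± 0.06, and neither passed. The median of the list was -0.09. A list of 9 genes held receptor partners of the genes described here and some of their relatives. In it 0 passed in limma, with 1 higher and 3 lower at an unadjusted p under 0.05. Cd180, which encodes the RP105 that Ly86 binds, differed by -0.41 ± 0.11 (limma adjusted p = 0.122) and Adgre4, a relative of Adgre1, by -0.48 ± 0.12 (limma adjusted p = 0.111).

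Markers of other myeloid cells moved between the same groups. Of 9 measured neutrophil markers 3 rose and none fell, and the mean level of the list ran from 13.97 to 14.01 on the dox arrays and from 14.24 to 14.25 on the withdrawal arrays. Eosinophil markers rose in 4 of 5 cases, with mean levels from 8.98 to 9.07 and from 9.54 to 9.66. Mast cell and basophil markers rose in 3 of 7 cases, with mean levels from 9.61 to 9.67 and from 10.09 to 10.19. Megakaryocyte markers fell in 3 of 5 cases, with mean levels from 7.58 to 7.74 and from 6.91 to 7.03, and 1 of 4 erythroid markers, Hemgn, fell, with mean levels from 6.36 to 6.46 and from 5.88 to 5.96. Dendritic cell (6 genes), T cell (4 genes) and stroma (5 genes) markers had 0 calls in limma and 0 at an unadjusted p under 0.05. Their mean levels on the 6 arrays ran from 5.35 to 5.53, from 5.50 to 5.58 and from 4.37 to 4.60. Of 4 B cell markers 1 fell, Cd79b, a dim gene, and 0 of the 4 had a mean above the median of all probe sets. No marker is at 0 on these arrays, whose lowest value is 2.22. The part of these cell types in the differences of the 9 genes was not tested.

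The genes most like Csf1r over the 6 arrays, among 7988 genes with a mean of at least 7, were Mt2, a metallothionein gene (Pearson r = 0.999), St8sia4, a sialyltransferase gene (0.998), Cdk17 (0.997), Pdlim5 (0.996) and Podxl (0.996). Mt2 differed by -0.38, St8sia4 by -0.99, Cdk17 by -0.39, Pdlim5 by -0.32 and Podxl by -1.13, and all but Pdlim5 fell. The genes most like the mean of the 3 C1q genes were Fbxo25 (Pearson r = 0.998), Hsd17b4 (0.997), Nmt2 (0.997), Uba7 (0.996) and Nfix (0.996). Of these Nmt2 (-0.49), Uba7 (-0.75) and Nfix (-0.51) fell, while Fbxo25 (-0.22) and Hsd17b4 (-0.23) did not pass. The 6 points are 2 groups of 3 arrays, so these correlations mostly restate the difference between the groups and are given as a description only.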

How the data were processed

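Log2 expression values as deposited were used; RMA made them, per the submitters' processing notes, with no version or chip definition given in the sources used here. RMA brings arrays to a shared distribution, which removes a shift of most transcripts and compresses differences near the floor. Of 45101 rows, 64 manufacturer controls were left out. The annotation gave 34945 probe sets 1 symbol, 932 several and 9160 none, and 34741 matched RefSeq gene IDs (GRCm38.p6, for names and neighbours).

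Groups came from the titles. Limma 3.58.1 (lmFit, eBayes; R 4.3.3) tested them two-sided with 4 residual and 3.54 prior degrees of freedom, with Benjamini-Hochberg adjustment over 45037 probe sets. Each gene was read from its brightest probe set over the 6 arrays. Differences carry limma standard errors, and the number of arrays limits precision. By rule the text names the 9 genes, in each list the passed genes and the 2 others that differed most, and the 5 most correlated genes. Other context genes were named with their values known. The genes, lists, motifs and tests were chosen with earlier results of these data known. The fit was checked on simulated data. Alternatives left out arrays, blocked on replicate number, dropped dim probe sets, rescaled arrays, used trend and robust options, or read genes in other ways. Plots used matplotlib 3.10.9 (Python 3.11.15).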

Additional observations from a re-analysis of the deposited data

How the results depend on the processing

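Of the 9 genes 4 fell, and this count was 0 to 3 with 1 array left out, 0 with the replicate number as a block and 0 without withdrawal replicate 3 and dox replicate 1, a choice made with earlier results known. It was 4 or 5 under the other alternatives, and no gene rose under any of them. The direction of the 9 genes was kept under the alternatives that could be run, except that Cx3cr1 differed by 0.022 with the mean of its probe sets. Adgre1 has no value without probe sets of shared or cross-hybridising names, and Cx3cr1 and Ly86 have none above the median level. Deviations from the group means of same-numbered arrays correlated at -0.30, 0.46 and -0.03, and not every array correlated best with its own number. No pairing by replicate number was seen. With deviations taken within groups of 3, these values cannot show whether the arrays were paired.

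Over all probe sets 530 were lower and 356 higher. These became 173 to 346 lower and 88 to 256 higher with 1 array left out, 197 lower and 94 higher with the replicate block, and 94 lower and 28 higher without those same 2 arrays. They became 1082 and 862 among probe sets above the median, 1389 and 1071 with trend and robust options, and 320 and 233 without shared or cross-hybridising names. The calls of context lists without a called gene stayed within 0 to 2 in either direction.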
